A study of Homo sapiens with 56 samples.

Results

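Chromosome 19 carries a short and a long arm of similar gene content, and the RNA of the genes on each arm was compared between 4 human mantle cell lymphoma cultures. The members were the rows of chromosome 19 that were annotated as protein-coding and had a level of at least 1 CPM (read counts scaled to the same library total) in 5 or more libraries. They were 1003 of the 1205 protein-coding rows of the chromosome, and the whole table held 21595 rows. A start below position 25000000 placed a gene on the short arm (464 members) and a higher start on the long arm (539 members). Genes whose symbol starts with ZNF, the large zinc finger family, were read apart: 75 lay on the short arm and 154 on the long arm, which left 389 other short-arm and 385 other long-arm members. The last short-arm member before the split was ZNF254 and the first long-arm member after it was UQCRFS1. At the edge of the level rule, 8 members had exactly 5 libraries at 1 CPM, with highest values of 1.49 to 6.35 CPM, and 10 genes with 4 such libraries, with highest values of 1.36 to 5.08 CPM, stayed outside.

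A gain or loss of a chromosome arm changes the number of copies of every gene on it, and the RNA of many of these genes then shifts a little in one direction, while others are held at their level by their own regulation. The files hold RNA only: copy number was not measured, and a shift shared by the genes of an arm is reported here as that and no more. Most ZNF genes encode proteins with a KRAB domain, which recruits the corepressor TRIM28 and with it histone methylation and heterochromatin, and the ZNF genes of chromosome 19 lie in clusters that are themselves often covered by such repressive chromatin. Chromosome 19 is rich in genes, in GC bases and in transposable elements, which many KRAB zinc finger proteins bind.

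The 56 libraries were poly-A RNA-seq of Z138 (13), JEKO-1 (15), MINO-VR (13) and MINO-P (15), lines grown from mantle cell lymphoma, a tumour of B cells with high cyclin D1; the labels give MINO-P and MINO-VR as separate cultures and do not say what P and VR mean. MINO-VR was set against MINO-P over their 9 shared treatments: CON, CLF, BTZ, BTZ_CLF, YM155 and BTZ_YM155 with 1 library per culture, IBR with 3, IBR_CLF with 2, and S63845 with 1 of MINO-VR and 2 of MINO-P, 12 and 13 libraries in all. JEKO-1 (7 libraries) was set against MINO-P (8) over IBR, IBR_CLF, YM155 and S63845, and Z138 (8) against MINO-P (9) over the same treatments and IBR_YM155. CLF, BTZ, IBR and CON are written as in the labels; YM155 is a suppressor of BIRC5 expression and S63845 an inhibitor of MCL-1. Doses and times were not given, and nothing in the labels says that libraries of one group came from separate cultures, so that p-values measure the spread between libraries, which may be technical. In bulk RNA, fewer cells with a high level and less RNA per cell cannot be told apart.

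The depth of a library, recovered from the steps of its low values, lay between 5.52 and 21.6 M reads. B-cell markers were at a median of 1 CPM or more for 5 of 6 genes in Z138 and for 6 of 6 in the other lines, and both mantle cell lymphoma markers, CCND1 and SOX11, were so in all 4 lines. The mitochondrial share was 1.91% to 80.5% and was highest in JEKO-1, where the IBR_CLF libraries of the comparison had 60.7% and 59.1%. One JEKO-1 library of BTZ stood apart from every other library on this chromosome; it enters no comparison below other than the values by library. MINO-P and MINO-VR libraries carried HK names for CON, CLF, BTZ and BTZ_CLF and MCL names for the rest, so both cultures were always compared within one library series.

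The start regions of 4 members that the results turn on are shown first, as the 250 bases before the RefSeq transcription start (GRCh38.p14), each written 5′ to 3′ with every CG dinucleotide in capitals. They are, among the genes named by the rule below, those with the largest difference of each class whose window reached at most 1 base into the gene as the table lists it: LRRC25 (short arm, chr19:18397623-18397872, minus strand), ZFP82 (long arm, chr19:36418645-36418894, minus strand), ZNF556 (short-arm ZNF, chr19:2867085-2867334, plus strand) and ZNF175 (long-arm ZNF, chr19:51571033-51571282, plus strand).

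LRRC25: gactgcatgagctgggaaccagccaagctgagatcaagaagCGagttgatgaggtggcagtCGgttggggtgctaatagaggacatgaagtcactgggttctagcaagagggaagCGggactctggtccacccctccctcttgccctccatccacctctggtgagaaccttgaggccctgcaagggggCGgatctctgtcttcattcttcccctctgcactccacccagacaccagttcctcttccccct

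ZFP82: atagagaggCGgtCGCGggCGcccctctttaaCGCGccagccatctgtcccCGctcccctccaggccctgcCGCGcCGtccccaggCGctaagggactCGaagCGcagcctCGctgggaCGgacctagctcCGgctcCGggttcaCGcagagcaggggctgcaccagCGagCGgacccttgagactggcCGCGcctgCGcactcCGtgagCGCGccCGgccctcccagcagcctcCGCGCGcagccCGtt

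ZNF556: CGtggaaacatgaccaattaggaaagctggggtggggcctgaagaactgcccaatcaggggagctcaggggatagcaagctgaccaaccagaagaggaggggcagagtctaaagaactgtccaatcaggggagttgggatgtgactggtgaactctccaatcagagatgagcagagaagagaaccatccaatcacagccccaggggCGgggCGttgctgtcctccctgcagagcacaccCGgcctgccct

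ZNF175: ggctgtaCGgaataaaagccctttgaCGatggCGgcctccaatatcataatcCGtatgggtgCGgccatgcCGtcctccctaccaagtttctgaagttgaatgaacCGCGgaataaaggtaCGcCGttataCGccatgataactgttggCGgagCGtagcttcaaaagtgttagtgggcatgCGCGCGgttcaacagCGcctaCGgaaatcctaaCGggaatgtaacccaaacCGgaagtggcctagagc

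LRRC25 and ZNF556 had 4 CG each in these windows, ZFP82 had 31 and ZNF175 had 20. A relation between the number of CG and the level of a gene was not tested. Of the 1003 members 865 matched a RefSeq start by symbol. Over these, the median number of CG dinucleotides was 23 for other short-arm members, 19 for other long-arm members, 12 for short-arm ZNF genes and 18 for long-arm ZNF genes, and over all 35116 windows of the table it was 11. At least 1 CG was present in 93.9% of all windows, so its presence alone separates little, and a count of CG says nothing of methylation, which was not measured.

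The contrast of MINO-VR with MINO-P is the one for which the chromosome was chosen, so its values are a description and no test is read from them. Most short-arm genes were somewhat higher in MINO-VR and most long-arm genes somewhat lower. Differences are on the log2(CPM + 1) scale from a limma fit with treatment as a term, and class medians are given relative to the median of the 13619 tested genes outside chromosome 19, which was 0.04. Of the 1003 members 913 passed the level filter of this fit. The median relative difference was 0.33 for the 370 other short-arm members tested, 1.26-fold. Before the outside median was taken off, 340 of them lay above 0. The relative median was −0.27 for the 352 other long-arm members, 0.83-fold, and 278 of them lay below 0 on the unadjusted scale. Of the genes outside the chromosome 55.6% lay above 0 and 44.4% below on that scale. At a mean of 2 to 5 CPM, against outside genes of that level, the median was 0.49 for 24 other short-arm members. There it was 0.04 for 31 other long-arm members and 0.0002 for 19 long-arm ZNF genes. At 30 CPM or more the medians of other members were 0.33 and −0.36.

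The ZNF genes of each arm lay on the same side of 0 as the other members of that arm, and the sizes of the classes were not tested against each other. The median relative difference was 0.14 for 56 short-arm ZNF genes and −0.38 for 135 long-arm ZNF genes. On the unadjusted scale 42 of the short-arm ones lay above 0 and 106 of the long-arm ones below 0. In counts past an adjusted p of 0.05 (limma, Benjamini-Hochberg over 14631 genes), 23.4% of all genes tested were called, 14.8% higher and 8.61% lower in MINO-VR. Among other short-arm members 195 were higher and 8 lower, among other long-arm members 11 were higher and 99 lower, among short-arm ZNF genes 12 were higher and 1 lower, and among long-arm ZNF genes 2 were higher and 46 lower. Since the chromosome was chosen on this contrast, nothing is read from these shares.

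**Figure D1:**
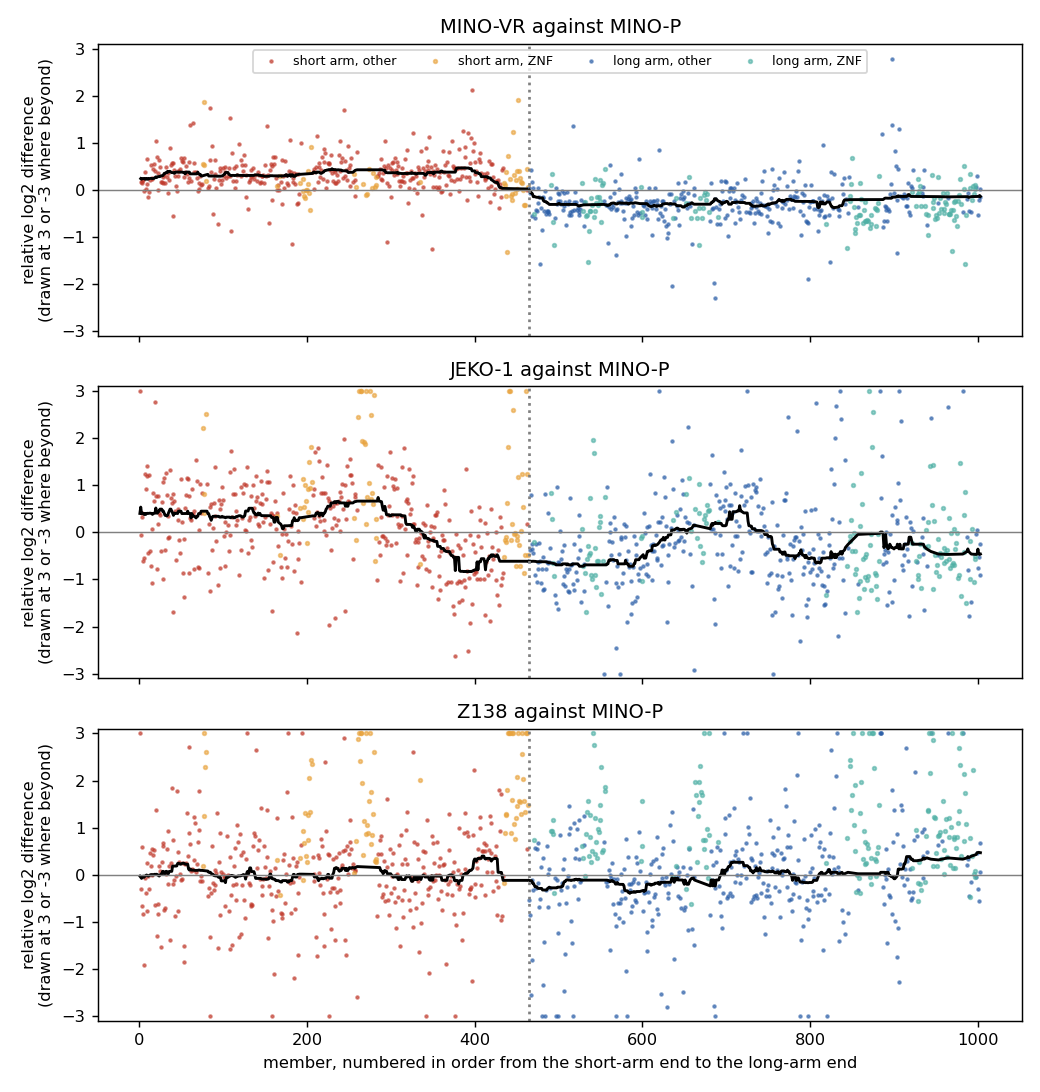
Relative log2 difference (vertical axis) of each tested member against its place in the order of the 1003 members from the end of the short arm to the end of the long arm, for the 3 comparisons; the black line is a running median over 41 members not named ZNF and the dotted line is the split between the arms. In MINO-VR the line lies above 0 over the short arm, near 0 around the split and below 0 over the long arm, in JEKO-1 it crosses 0 within each arm, and in Z138 it moves to both sides of 0 within each arm while most ZNF points lie above it.

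The shift covered each arm along most of its length. In bins of 5 Mb of the listed start (hg38), the median relative difference of members not named ZNF was 0.32, 0.29, 0.39 and 0.36 from 0 to 20 Mb. From 30 to 35 Mb it was −0.44, over the 3 bins from 35 to 50 Mb it was −0.28, −0.32 and −0.27, and it was −0.20 from 50 to 55 Mb and −0.14 from 55 to 60 Mb. From 20 to 30 Mb, around the centromere, 1 and 6 members were tested in the 2 bins and no median was taken. Of the 6 long-arm members from 25 to 30 Mb, 66.7% lay above the outside median. The place of the change of sign was therefore not resolved. Other chromosomes shifted by as much as these arms: with the same rule for genes, the median over chromosome 9 was 0.36 and over chromosome 2 −0.30, the highest and the lowest of the 22 other chromosomes.

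Each library was scored by the median deviation of an arm's members, other than ZNF genes, from their mean over the 13 MINO-P libraries, less the same over genes outside the chromosome. The short-arm score minus the long-arm score was −0.42 to 0.31 in the 13 MINO-P libraries (median 0.02) and 0.45 to 0.81 in the 12 MINO-VR libraries (median 0.64). The 2 cultures did not overlap on this score, although they overlapped on each arm taken alone: the short-arm score was −0.42 to 0.34 in MINO-P and 0.11 to 0.54 in MINO-VR, and the long-arm score −0.38 to 0.26 and −0.50 to −0.06. The lowest MINO-P libraries were BTZ, at −0.42, and BTZ_CLF, at −0.35, and the highest were an S63845 library, at 0.31, and an IBR library, at 0.27.

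The 3 libraries of treatments found in only 1 of the cultures took no part in the contrast. MINO-VR treated with BTZ_S63845 scored 0.60, and MINO-P scored −0.07 with IBR_YM155 and −0.13 with IBR_S63845. Each lay within the range of its own culture and outside that of the other. With 1 library against 2, of different treatments, no test was made.

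**Figure D2:**
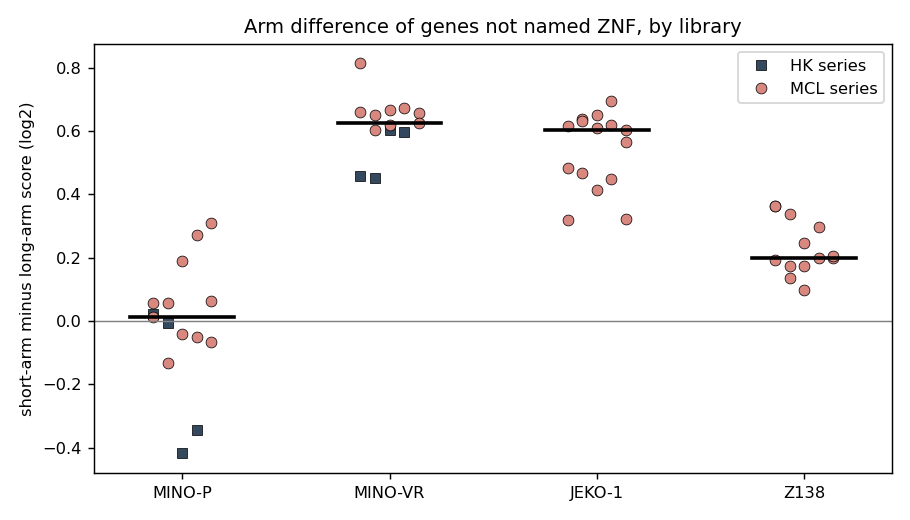
Short-arm minus long-arm score (log2, vertical axis) of members not named ZNF in each of the 56 libraries, by cell line; squares are HK and circles MCL libraries and bars are medians. All MINO-VR libraries lie above all MINO-P libraries, JEKO-1 lies between 0.32 and 0.69 and Z138 between 0.10 and 0.36.

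JEKO-1 scored 0.32 to 0.69 (median 0.60, n = 15) on the same scale and overlapped MINO-VR. Z138 scored 0.10 to 0.36 (median 0.20, n = 13), which overlapped MINO-P and not MINO-VR. The JEKO-1 library of BTZ that stood apart had a score of 0.32, with both arms far below the other libraries, at −1.57 for the short and −1.88 for the long arm.

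The direction of both arm medians was the same in all 9 treatments, although their sizes differed and the long-arm one was near 0 with CON. Other short-arm members had a median relative difference of 0.17 (IBR) to 0.54 (YM155), 0.38 ± 0.14 over treatments (SD, n = 9). Other long-arm members had −0.48 (BTZ_CLF) to −0.02 (CON), −0.25 ± 0.18. The share of them below the outside median was 52.6% (CON) to 82.7% (IBR_CLF). The gap between the arms was smallest with BTZ_YM155, at 0.39, and largest with BTZ, at 0.96, and BTZ_CLF, at 1.01, the 2 treatments in which the MINO-P libraries scored lowest. Within the HK series the short-arm median was 0.49 and the long-arm median −0.29, and within the MCL series they were 0.29 and −0.28. Without the treatments that include BTZ the medians were 0.31 and −0.24.

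Long-arm ZNF genes were below 0 in all 9 treatments, at −0.16 (IBR_CLF) to −0.81 (BTZ), and short-arm ZNF genes were above 0 in 8 of 9, at −0.07 with S63845 and 0.05 to 0.22 otherwise. By gene, 120 of 370 other short-arm members (32.4%) were higher in MINO-VR in all 9 treatments, against 6.91% of genes outside the chromosome. Lower in all 9 were 41 of 352 other long-arm members (11.6%) and 28 of 135 long-arm ZNF genes (20.7%), against 4.22% outside. The chromosome was chosen on this contrast over these treatments, so these shares too are a description and nothing is read from them.

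**Figure D3:**
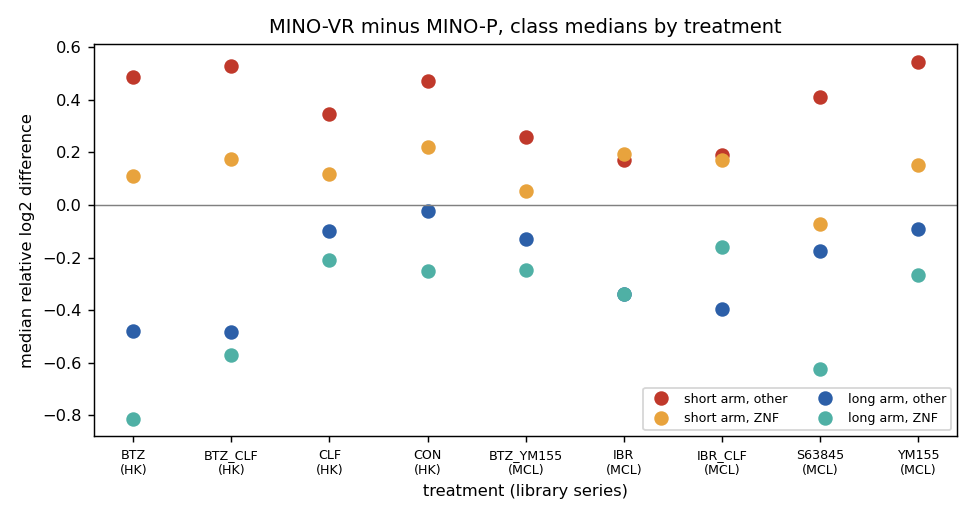
Median relative log2 difference between MINO-VR and MINO-P (vertical axis) of each class of members in the 9 shared treatments, with the library series in brackets. Short-arm genes not named ZNF lie above 0 and long-arm genes of both kinds below 0 in every treatment, and short-arm ZNF genes lie at −0.07 with S63845.

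Few genes were separated completely. The ranges of the 12 MINO-VR and 13 MINO-P libraries did not overlap for 5 members: LRRC25, LAIR1 and ZNF682 were higher in MINO-VR and RHPN2 and ZNF544 lower. Outside the chromosome 0.18% of genes were apart in each direction. The genes named next are among those with the largest differences of one direction in all 9 treatments.

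On the short arm LRRC25 (chr19:18391137-18397623), a leucine-rich repeat membrane protein of myeloid and other blood cells, was at 21.2 to 40.4 CPM in MINO-VR (median 28.3) and at 1.95 to 15.9 CPM in MINO-P (median 6.48). Its difference was 2.16 ± 0.19 (SE) and its ranges did not overlap. SLC25A23, a calcium-dependent carrier of the inner mitochondrial membrane for adenine nucleotides, had medians of 59.1 and 23.4 CPM and a difference of 1.41 ± 0.22, and JSRP1, a protein of the sarcoplasmic reticulum, had medians of 43.0 and 15.8 CPM and a difference of 1.42 ± 0.12. The ranges of these last 2 overlapped.

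KLF2, a transcription factor of B-cell quiescence and homing, went against its arm: it was at 5.88 to 17.3 CPM in MINO-VR (median 12.2) and at 14.3 to 57.9 CPM in MINO-P (median 29.4), a difference of −1.21 ± 0.15. The other 7 short-arm members not named ZNF that were called lower, named after their values were seen, were MEX3D, SMIM24, TBXA2R, FSD1, TUBB4A, CTXN1 and MAST1. CTXN1, a small membrane protein of cortical neurons, had −1.10 ± 0.21, and MAST1, a microtubule-associated kinase, −1.07 ± 0.20.

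On the long arm NUMBL, a relative of the Notch inhibitor NUMB, was at 16.2 to 65.1 CPM in MINO-VR (median 33.9) and at 27.1 to 125 CPM in MINO-P (median 64.7), with a difference of −0.92 ± 0.14. ZFP82, a KRAB zinc finger gene outside the ZNF symbols whose start region is printed above, was at 5.59 to 11.3 CPM against 9.16 to 19.1 CPM, with −0.73 ± 0.15. DMAC2, an assembly factor of respiratory complex I, had medians of 27.0 and 49.6 CPM and a difference of −0.72 ± 0.09. All 3 were lower in MINO-VR in each treatment, and the ranges of the cultures overlapped for each.

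Some long-arm genes went against their arm. LAIR1 (chr19:54351384-54370559), an inhibitory collagen receptor of leukocytes, was at 7.84 to 36.5 CPM in MINO-VR (median 23.1) and at 0 to 6.16 CPM in MINO-P (median 2.11), a difference of 2.82 ± 0.20 with no overlap. TYROBP, the signalling adaptor DAP12 of myeloid and natural killer cell receptors, was at 15.3 to 47.2 CPM against 4.01 to 24.1 CPM, with 1.40 ± 0.18, and LENG9, a gene beside the leukocyte receptors, had medians of 17.3 and 11.2 CPM and 0.87 ± 0.15. Of the 11 long-arm members not named ZNF that were called higher, 6 started between 50 and 55 Mb: OSCAR, LILRA4, LAIR1, LENG9, LILRA2 and NLRP2, which were named after their values were seen. Over the 40 members not named ZNF tested in this bin, these 6 were called higher and 10 lower. Over all genes tested 14.8% were higher and 8.61% lower, and nothing particular to the bin is read from its counts. The leukocyte receptor gene LILRB1, also in the bin, had −1.30 ± 0.25.

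Of the 4 myeloid markers, ITGAM and LYZ had higher medians in MINO-VR. The sum of CD14, LYZ, CSF1R and ITGAM was 1.12 to 25.8 CPM in the 13 MINO-VR libraries (median 5.83) and 0.51 to 6.86 CPM in the 15 MINO-P libraries (median 1.90). ITGAM had medians of 2.49 and 0.90 CPM and LYZ of 1.02 and 0.12 CPM, while CSF1R had a median of 0 in both and CD14 one of 0.25 and 0.68 CPM. Their part in the values of LRRC25, LAIR1 and TYROBP was not tested.

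Among the ZNF genes of the short arm, ZNF493 was at 3.45 to 10.6 CPM in MINO-VR (median 5.09) and at 0 to 6.89 CPM in MINO-P (median 0.56), a difference of 1.94 ± 0.23. ZNF556 was at 0.76 to 10.9 CPM (median 3.09) against 0 to 1.72 CPM (median 0.05), with 1.91 ± 0.24, and ZNF562 had medians of 18.1 and 9.34 CPM and 0.95 ± 0.18. ZNF429 had medians of 8.66 and 6.88 CPM and 0.44 ± 0.15, and its call was lost under 13 of 34 alternatives. ZNF93, which is known to bind LINE-1 elements, went the other way, at 2.10 to 10.4 CPM (median 4.56) against 5.47 to 24.2 CPM (median 13.1), with −1.28 ± 0.19.

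On the long arm ZNF544 was at 1.41 to 4.68 CPM in MINO-VR (median 3.62) and at 5.30 to 18.5 CPM in MINO-P (median 14.5), a difference of −1.52 ± 0.18 with no overlap. ZNF175 had medians of 3.85 and 9.92 CPM and a difference of −1.20 ± 0.20, ZNF841 of 6.31 and 13.2 CPM and −0.87 ± 0.20, and ZNF461 of 4.65 and 8.47 CPM and −0.82 ± 0.19. ZNF329 was higher, with medians of 7.41 and 4.80 CPM and 0.55 ± 0.17. Members of these clusters are close copies of each other and how reads of shared sequence were assigned is not given in the sources used here, so single values of ZNF genes are uncertain.

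**Figure D4:**
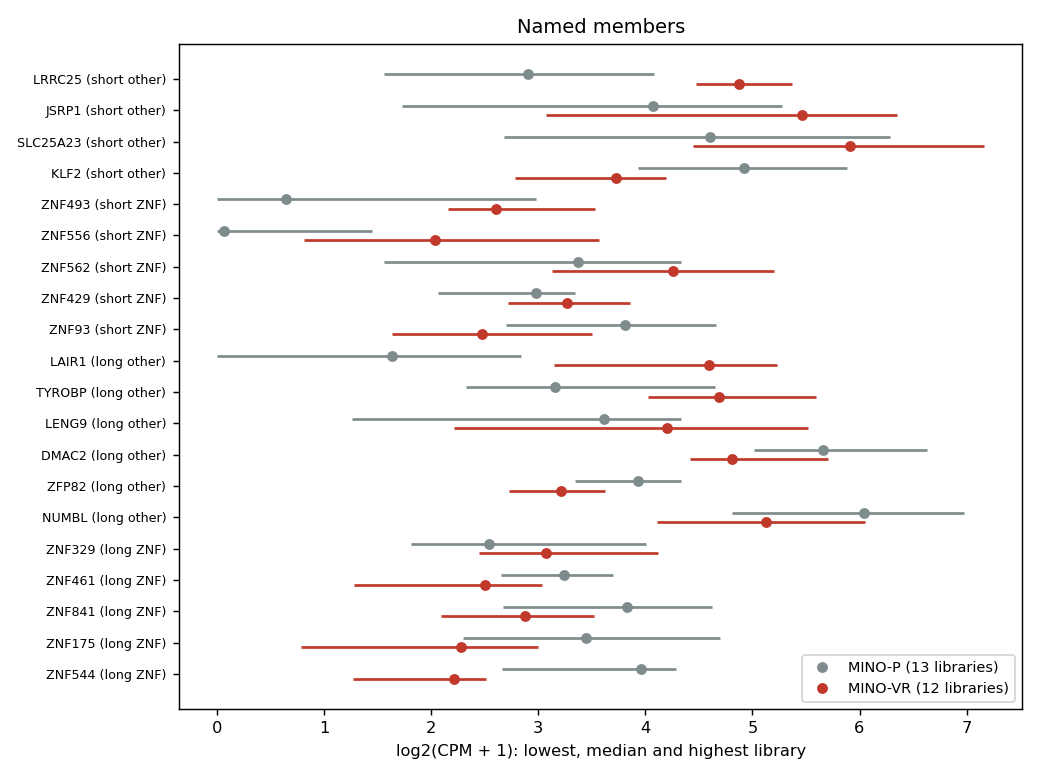
Lowest, median and highest log2(CPM + 1) (horizontal axis) of the named members in the 13 MINO-P and 12 MINO-VR libraries of the shared treatments. The ranges of LRRC25, LAIR1 and ZNF544 are apart and those of NUMBL and the others overlap.

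The gene lists are given by arm as a description. Their counts stand beside 14.8% higher and 8.61% lower over all genes tested, and beside 52.7% higher over the other short-arm members and 28.1% lower over the other long-arm members, and nothing particular to a list is read from them. Of the B-cell and lymphoma genes, 11 of 18 on the short arm were called higher and 1 lower, with a median difference of 0.54, and on the long arm 2 of 14 were higher and 8 lower, with a median of −0.31. On the short arm JUNB, a subunit of the AP-1 transcription factor, had medians of 113 CPM in MINO-VR and 68.5 CPM in MINO-P and a difference of 1.08 ± 0.18. ICAM1, an adhesion molecule, had 0.91 ± 0.14, JAK3, the kinase of the common gamma chain, 0.92 ± 0.25, and TYK2, a kinase of interferon receptors, 0.62 ± 0.12. EBI3, a cytokine subunit, had 1.57 ± 0.34 at medians of 10.8 and 2.36 CPM.

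On the long arm CD79A, the signalling chain of the B-cell receptor, was at no more than 403 CPM in MINO-VR and at 133 to 490 CPM in MINO-P (median 378), with a difference of −0.87 ± 0.16. SPIB, an ETS factor of B cells, was at 2.60 to 294 CPM (median 14.3) against 12.5 to 625 CPM (median 92.7), a wide spread across treatments in both cultures, with a difference of −1.48 ± 0.34. The NF-kB genes RELB, at −0.32 ± 0.11, and NFKBIB, at −0.40 ± 0.13, and the kinase gene AKT2, at −0.29 ± 0.09, were among the 8 lower. LAIR1 and IL4I1, an amino acid oxidase, were the 2 that were higher. BCL3, another NF-kB gene of the long arm, did not pass the test, with 0.19 ± 0.12.

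Of the cytosolic ribosomal protein genes, 7 of 8 on the long arm were lower and none higher, among them RPS19, at medians of 1195 and 1518 CPM and a difference of −0.68 ± 0.16, and RPL13A, at 1041 and 1591 CPM and −0.61 ± 0.12. None of the 5 on the short arm passed the test, and RPS15 had 0.26 ± 0.14 and RPS28 −0.26 ± 0.11. Of the respiratory chain subunits 3 of 7 on the short arm were higher, with UQCR11 at 0.34 ± 0.10, and 2 of 3 on the long arm lower, with NDUFA3 at −0.74 ± 0.16. Of the DNA repair and replication genes 5 of 6 on the long arm were lower, with the DNA ligase gene LIG1 at −0.61 ± 0.14 and ERCC1, a subunit of a repair endonuclease, at −0.48 ± 0.10, and 2 of 3 on the short arm higher, with BABAM1, a subunit of the BRCA1-A complex, at 0.42 ± 0.09.

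The other lists were smaller. Of the protein turnover genes 4 of 6 on the long arm were lower, with the proteasome subunits PSMC4 at −0.44 ± 0.11 and PSMD8 at −0.36 ± 0.08, and 2 of 3 on the short arm higher, with the chaperone CALR at 0.46 ± 0.13. Of the oxidative stress genes 3 of 4 on the short arm were higher, STK11, KEAP1 and PRDX2, and neither FTL nor BLVRB of the long arm passed the test. Of the apoptosis genes DAPK3 on the short arm was higher, at 0.51 ± 0.09, and CARD8 on the long arm lower, at −0.63 ± 0.15. BAX, the effector of mitochondrial apoptosis, had medians of 59.7 and 60.0 CPM and −0.14 ± 0.10, and BBC3, which encodes PUMA, −0.44 ± 0.16, and neither passed the test.

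JEKO-1 had another pattern along the chromosome. The members not named ZNF had median relative differences from MINO-P of 0.40, 0.33 and 0.47 over the 3 bins from 0 to 15 Mb, then −0.49 from 15 to 20 Mb. They had −0.64 and −0.70 from 30 to 40 Mb, −0.03 and −0.15 from 40 to 50 Mb, and −0.26 and −0.41 from 50 to 60 Mb. So the change of sign lay within the short arm, and a stretch of the long arm from 40 to 45 Mb lay near the median of other chromosomes. By arm, the median was 0.17 over 376 short-arm members not named ZNF and −0.36 over 363 of the long arm, and without the filter on low genes the short-arm median was 0.0188. By treatment the short-arm median was 0.02 with IBR_CLF to 0.64 with YM155, and the long-arm median was −0.53 with IBR_CLF to 0.14 with YM155, where both lay above 0. In this fit 37.5% of 14924 genes were called, 12.8% higher and 24.6% lower in JEKO-1; of the short-arm members not named ZNF 67 were higher and 82 lower, and of those of the long arm 38 were higher and 143 lower.

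The direction of the JEKO-1 calls depended on scaling. On the deposited scale 142 of all members were higher and 282 lower. Leaving mitochondrial genes out of the scaling made these 258 and 212, and size factors made them 230 and 245. The median of genes outside the chromosome was −0.19 as deposited, and the medians relative to it were 0.23 and −0.36 for the arms without mitochondrial genes and 0.21 and −0.36 with size factors. The gap between the arms was 0.38 to 0.55 over the 4 treatments, 0.47 ± 0.07 (SD, n = 4), and was 0.55 in IBR_CLF, whose JEKO-1 libraries had the highest mitochondrial share of the comparison. The 8 long-arm ribosomal protein genes had a median difference of −1.68 and the 5 of the short arm −1.18, both on the deposited scale. Both medians lay below 0, unlike in MINO-VR, and that of the long arm was the lower one.

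In Z138 the median relative difference from MINO-P was 0.01 over 381 short-arm members not named ZNF and −0.08 over 369 of the long arm, and by bin it lay between −0.23 and 0.33, the highest at 55 to 60 Mb. Both medians differed by treatment: the short-arm median was −0.35 with IBR_CLF to 0.54 with YM155, and the long-arm median −0.50 to 0.40 with the same treatments. The gap between the arms was −0.05 with IBR and 0.11 to 0.17 in the other 4 treatments. In this fit 40.2% of 14990 genes were called, 24.0% higher and 16.1% lower in Z138. Of the short-arm members not named ZNF 90 were higher and 55 lower, and of those of the long arm 84 were higher and 57 lower. The comparisons of JEKO-1 and Z138 share MINO-P libraries with each other and with that of MINO-VR, so the 3 are set side by side only.

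Many ZNF genes of both arms were higher in Z138 than in MINO-P. The level filter bears on their count: 74 short-arm ZNF genes passed it here against 56 in the fit of MINO-VR, and 10 of the 75 members were listed at 0 in every MINO-P library, so genes that passed only through Z138 could only come out higher. The counts and medians are therefore a description. Of the 74 tested 60 were called higher and none lower, at a median relative difference of 1.40, 2.65-fold; of 154 long-arm ZNF genes 91 were higher and none lower, at 0.80, 1.74-fold. In each of the 5 treatments the short-arm median was between 1.04 and 1.80 and the long-arm median between 0.55 and 1.21. Around the largest short-arm cluster, ZNF653 to ZNF791, the 24 ZNF genes tested had a median of 1.22 and 39 other members within 500 kb had 0.09. Around the long-arm clusters ZNF175 to ZNF331 and ZNF628 to ZNF446 the other members had −0.31 and 0.33.

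In JEKO-1 the short-arm ZNF genes had a median of 0.63 over 70 tested, with 25 higher and 3 lower. The long-arm ZNF genes had −0.38 over 141, with 12 higher and 54 lower, against 12.8% and 24.6% of all genes. The level filter bears on these counts too: 70 short-arm ZNF genes passed it against 56 in the fit of MINO-VR. Genes that passed only through JEKO-1 could only come out higher, so the counts and medians are a description. The short-arm value rested on genes of low level: among ZNF genes with a mean of at least 10 CPM it was 0.07, and with a pseudocount of 0.1 in place of 1 CPM it was 0.99. In Z138 the ZNF medians lay above 0 in each band of level, at 1.29 for 17 short-arm and 0.25 for 21 long-arm ZNF genes with a mean of 30 CPM or more, against 2.38 and 1.80 for those between 2 and 5 CPM.

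**Figure D5:**
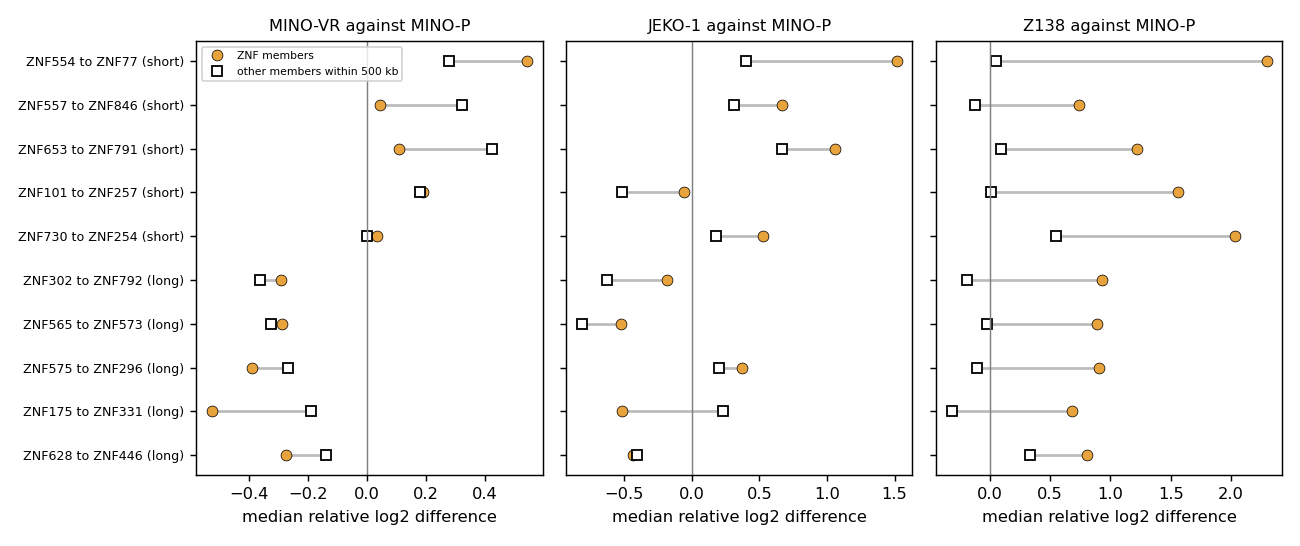
Median relative log2 difference (horizontal axis) of the ZNF members of each cluster of 5 or more (circles) and of the other members within 500 kb (squares), in the 3 comparisons; clusters run from the short-arm end at the top. In MINO-VR the circles share the sign of the squares except for ZNF730 to ZNF254, where both lie near 0, and in Z138 all 10 circles lie right of their squares.

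By cluster, the median of the ZNF genes in MINO-VR mostly had the sign of that of their neighbours, though some lay near 0. The short-arm clusters ZNF557 to ZNF846 and ZNF653 to ZNF791 had medians of 0.04 and 0.11, against 0.32 and 0.42 for their neighbours, and ZNF101 to ZNF257 had 0.19 against 0.18. Above the outside median lay 7 of 14 genes of ZNF557 to ZNF846 and 9 of 11 of ZNF653 to ZNF791. In ZNF101 to ZNF257 14 of 20 did, and in ZNF730 to ZNF254 3 of 6. On the long arm ZNF175 to ZNF331 had −0.53 against −0.19 for 9 neighbours, and ZNF565 to ZNF573 had −0.29 against −0.33. In JEKO-1 the cluster ZNF175 to ZNF331 had −0.52 while its 11 neighbours had 0.23.

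Low values of ZNF genes were counted by line. The member rule bears on these counts: a gene near 0 in MINO-P is a member only through libraries of other lines. Genes low in all lines are not members, so the counts are a description and no difference between lines is read from them. A median under 1 CPM was found for 4 of the 75 short-arm ZNF genes in Z138, 8 in JEKO-1, 27 in MINO-VR and 30 in MINO-P, and of the 154 on the long arm for 2, 28, 31 and 25. Of the other short-arm members 46, 55, 48 and 49 of 389 were under 1 CPM in the same order of lines. The following genes were chosen after their values were seen. ZNF486 was at 32.7 to 97.6 CPM in Z138 (median 57.2), at 0 to 1.08 CPM in MINO-P and at a median of 14.0 CPM in JEKO-1, and ZNF85 at 15.7 to 43.3 CPM in Z138 and 0 to 1.86 CPM in MINO-P. Their differences between Z138 and MINO-P were 5.55 ± 0.26 and 4.25 ± 0.27. ZNF681 and ZNF257 were listed at 0 in every MINO-P library of the shared treatments and at 14.3 to 42.6 and 18.3 to 34.8 CPM in Z138; 3 reads correspond to 0.14 to 0.54 CPM at these depths.

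The ZNF genes named by the rule for MINO-VR all had a higher median in Z138 than in either MINO culture. For ZNF461 the medians were near each other, at 9.51 CPM in Z138 and 8.47 CPM in MINO-P. ZNF493 had a median of 23.0 CPM in Z138 and 4.31 in JEKO-1, and ZNF556 of 13.7 and 0.29 CPM. ZNF544 and ZNF93, lower in MINO-VR than in MINO-P, had medians of 41.1 and 50.2 CPM in Z138. TYROBP, in contrast, was listed at 0 in all 13 Z138 libraries, and LRRC25 had medians of 0.13 CPM in Z138 and 0.47 in JEKO-1.

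The partners of KRAB repression were measured beside these genes. TRIM28, the corepressor itself, lies on the long arm and had medians of 408 CPM in MINO-VR and 528 CPM in MINO-P, a difference of −0.49 ± 0.08, lower in each of the 9 treatments. DNMT1, the maintenance DNA methyltransferase on the short arm, had 0.46 ± 0.17 and UHRF1, its cofactor, −0.12 ± 0.25. Over all chromosomes 1 of the 12 listed partners was higher and 1 lower in MINO-VR, against 14.8% and 8.61% of all genes. In Z138 6 of 12 were higher than in MINO-P and none lower, against 24.0% and 16.1% of all genes, among them the heterochromatin protein gene CBX5, at 2.01 (limma adjusted p = 0.000485), and the histone methyltransferase gene SETDB1, at 1.10 (limma adjusted p = 5.52e-05), while TRIM28 had −0.16 (limma adjusted p = 0.553). In JEKO-1 none was higher and 5 were lower, against 12.8% and 24.6% of all genes, among them TRIM28 at −0.95 (limma adjusted p = 0.00521). These values are on the deposited scale, where the median of genes outside the chromosome was −0.19 in JEKO-1. As stated above, the direction of JEKO-1 calls depended on scaling.

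GC content differed between the classes and was checked beside the arms. The median transcript GC was 60.7% for other short-arm members, 59.0% for other long-arm members, 40.8% and 42.8% for ZNF genes of the short and long arm, and 48.1% outside the chromosome. Taken against genes outside the chromosome of the same GC decile, the medians in MINO-VR were 0.25 and −0.35 for the other members and 0.17 and −0.35 for the ZNF genes, and in Z138 they were 1.24 and 0.74 for the ZNF genes. This check was added after the data were seen.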

How the data were processed

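RNA levels of 56 libraries were read from 1 table of log2 values. Per the labels' protocols, RNA was taken with QIAshredder columns and RNeasy kits and libraries were made with TruSeq v2 after poly-A enrichment; hg38 and Partek are named in the submitters' processing notes, and the counter, annotation and strand use are not given in the sources used here. The deposited values are log2(CPM + 1), as the sums of the back-transformed columns show; 79.0% to 89.2% of low values were whole reads within 0.05, so no count model was fitted. In R 4.3.3, limma 3.58.1 was fitted with its trend option to log2(CPM + 1) with treatment as a term, for genes that reached 1 CPM in 2 libraries of the fit, and p-values were adjusted over all genes; the method was tested on simulated data. The blank row (at most 0.0008% of a library) was left out. Fold changes on this scale understate those of low genes. The members, the lists and the tests were chosen with earlier results of these data known. Named genes were up to 4 per class and direction with an adjusted p under 0.05, the same direction in all 9 treatments and a mean of at least 10 CPM (2 CPM for ZNF genes), and the called or most abundant genes of each list; some are not reported here. ZNF clusters join ZNF members starting within 1 Mb. By identifier, 1002 members matched GENCODE release 29, which gave transcript GC; promoter sequences are from RefSeq. Alternatives changed the scaling, pseudocount, filter, weights, series, treatments and libraries, 1 at a time.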

Additional observations from a re-analysis of the deposited data

Results flagged for a closer look

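The MINO-VR library treated with BTZ_S63845, a treatment without a MINO-P library, entered no comparison of the cultures. Its short-arm minus long-arm score of members not named ZNF was 0.6031, above the highest MINO-P library at 0.309.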

How the results depend on the processing

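No called result reversed; the Z138 short-arm median of members not named ZNF, 0.0093, was −0.0054 without mitochondrial genes and 0.1751 with the GC correction, which also moved the long-arm one from −0.0781 to 0.0544. In MINO-VR against MINO-P each class median kept its sign under every alternative run. Over those that left out 1 library the short-arm median of members not named ZNF was 0.31 to 0.36 and the long-arm median −0.30 to −0.25. With HK libraries only the short-arm median was 0.4856, all genes called were 2047, members higher 141, other short-arm members higher 126 and other long-arm members lower 63; with MCL libraries only the counts were 1904, 129, 113 and 61, and members lower were 83, from fewer libraries. In JEKO-1 members higher were 258 without mitochondrial genes and 230 with size factors; the short-arm ZNF median was 0.986 with a pseudocount of 0.1 CPM. With a mean of at least 10 CPM, which tests fewer genes, JEKO-1 had a short-arm ZNF median of 0.0674 and a long-arm one of −0.5563, 3655 genes called and 71 members higher, and Z138 had 3832 genes called, 188 members higher and 61 lower. With libraries of a line and treatment averaged, JEKO-1 had 3216 genes called, 93 members higher and 151 lower, and Z138 3524 and 214. Among named genes ZNF429 lost its call in 13 of 34 alternatives, ZNF329 and ZNF841 in 2, and LENG9, SLC25A23, ZFP82 and ZNF461 in 1. No paired analysis by replicate number was possible because the labels give none; treatment, a term of every fit, pairs the cultures, and with the libraries of each treatment averaged 3468 genes were called in MINO-VR against MINO-P. Library pairs whose names differ by a suffix were kept apart. Outside Z138 their chi-square per degree of freedom had a median of 8.90 (4.24 to 80.7, 8 pairs), beyond sampling noise. It was 106 in Z138 (67.0 to 322, 5 pairs) and 183 for other pairs of a group (115 to 864, 10 pairs). Whether a suffix pair came from 1 sample was not tested, and the fits counted its libraries as separate. Averaging, which leaves fewer libraries, moved the genes called from 5590 to 3216 in JEKO-1 and from 6019 to 3524 in Z138. In MINO-VR they went from 3424 to 3468. Depth limits genes near the value of 3 reads, 0.14 to 0.54 CPM.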

Other observations

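Rows of chromosome 19 that are not protein-coding were tested in the same fits. In MINO-VR against MINO-P the 31 on the short arm had a median relative difference of 0.05, with 4 called higher and none lower, and the 52 on the long arm −0.12, with 2 higher and 10 lower, against 14.8% higher and 8.61% lower over all genes tested. In Z138 12 of 42 on the short arm were called higher and 2 lower, and on the long arm 20 of 67 were higher and 6 lower, against 24.0% and 16.1% of all genes. COL1A1, the collagen gene, was at 9.82 to 71.9 CPM in Z138 (median 44.0) and at 0 to 16.5 CPM in MINO-P (median 1.58). It reached 26.3 CPM in MINO-VR (median 0.96) and 11.1 CPM in JEKO-1 (median 4.67), so the range of each line overlapped that of Z138. The other fibroblast markers, COL1A2 and DCN, had medians of 0 in Z138.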
